A study of Mus musculus with 24 samples.

Results

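Macrophages were followed through 10 genes, Csf1r, Csf1, Adgre1, Cd68, Mrc1, Cd163, Arg1, Nos2, C1qa and Spp1, out of 55401 genes counted in each tumor. The list was drawn from their known roles, but with earlier results of these data known. Their rows were found through the Ensembl identifiers of the GENCODE M21 annotation, and all 10 had counts in all 24 tumors. The tumors were grown in male C57/BL6 mice aged 8 to 10 weeks from TC2Ras, a prostate cancer line made from TRAMP-C2 cells of the mouse that carries activated H-Ras and the mouse androgen receptor. Both arms of every comparison carried these same tumor cells and a plasmid delivered to muscle with ultrasound (sonoporation), so that the controls had received an empty vector and the IL-27 groups a vector encoding the cytokine. Subcutaneous tumors were harvested a week after implantation, with 2 tumors from mice given the empty vector (control) and 2 from mice given IL-27. Intratibial tumors came from a luciferase-expressing form of the line, TC2Ras-Luc, and were harvested on day 14, with 3 tumors a group, or at the end of the study (EOS), with 2 tumors a group. Their 4 groups were control (empty vector with PvP, the oral vehicle), IL-27 (IL-27 vector with PvP), cabo (empty vector with cabozantinib, a kinase inhibitor) and IL-27+cabo (both). Cabo was given daily for the first weeks after implantation, so that the EOS tumors were taken after dosing had stopped. EOS was not a fixed day: these mice were kept until the ethical endpoint, and the labels give no harvest day for them. The paper reports longer survival with cabo and with IL-27+cabo than in the controls. Treatment and time since implantation therefore cannot be told apart at EOS. RNA was isolated from sections of whole tumors, in which fewer macrophages and less RNA per macrophage cannot be told apart. Intratibial tumors are named by their mouse numbers, and the labels do not say whether the 2 tumors of a subcutaneous group came from separate mice, so that p-values there may measure technical spread alone.

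Macrophages arise from monocytes or tissue precursors and depend on the receptor CSF1R, which binds the growth factors CSF1 and IL-34. F4/80 (Adgre1) and CD68, a lysosomal glycoprotein, mark the lineage in mice. The mannose receptor CD206 (Mrc1), the hemoglobin scavenger receptor CD163 and arginase 1 (Arg1) are classical marks of alternative, or M2-like, activation, while inducible nitric oxide synthase (Nos2), which competes with arginase for arginine, marks classical, or M1-like, activation. C1qa encodes a chain of C1q, the first component of complement, which macrophages make, and Spp1 encodes osteopontin, a secreted protein made by macrophages, osteoclasts, osteoblasts and some tumor cells.

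The RefSeq promoters of build GRCm38.p6 were matched for 5 of the 10 genes, and not for Adgre1, Arg1, C1qa, Csf1r or Nos2. Shown here are the 250 bases before the start site of Mrc1, the gene that passed the test between intratibial groups, and of C1qb and C1qc, which encode the other chains of C1q and were the genes most like C1qa across the intratibial tumors. Capitals mark GAGGAA on either strand, a core of the sites bound by the myeloid factor PU.1. Mrc1 lies on the plus strand at chr2:14229164-14229413, C1qb on the minus strand at chr4:136886201-136886450 and C1qc on the minus strand at chr4:136892915-136893164.
Mrc1: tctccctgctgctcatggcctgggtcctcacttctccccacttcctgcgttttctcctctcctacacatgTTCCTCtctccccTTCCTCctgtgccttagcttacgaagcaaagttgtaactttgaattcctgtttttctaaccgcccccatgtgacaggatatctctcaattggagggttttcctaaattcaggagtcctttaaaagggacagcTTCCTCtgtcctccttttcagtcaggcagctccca
C1qb: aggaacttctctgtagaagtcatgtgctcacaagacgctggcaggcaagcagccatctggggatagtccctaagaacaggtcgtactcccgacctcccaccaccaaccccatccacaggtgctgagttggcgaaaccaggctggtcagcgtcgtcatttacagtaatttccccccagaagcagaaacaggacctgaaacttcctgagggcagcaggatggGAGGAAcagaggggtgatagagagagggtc
C1qc: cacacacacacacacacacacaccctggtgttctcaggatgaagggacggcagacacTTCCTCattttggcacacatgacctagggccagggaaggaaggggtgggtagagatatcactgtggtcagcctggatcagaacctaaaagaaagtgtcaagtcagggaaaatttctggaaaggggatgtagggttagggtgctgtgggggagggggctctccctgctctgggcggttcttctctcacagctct
The Mrc1 window held 3 copies and the C1qb and C1qc windows 1 each. The same letters stood in 23.3% of the 32851 promoter windows of this length, so that a match describes the window and is not a binding site.

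Values are in CPM, counts scaled to a common library size, after TMM normalization, an adjustment for library composition, computed apart for the subcutaneous and the intratibial tumors. The libraries held 63729005 to 83782258 counts, and each of the 10 members had at least 21 counts in every tumor. Between 30.4% and 35.5% of the values from 1 to 20 in a library were multiples of 4, and how the counts were made is not given in the sources used here, so that low counts may not be single reads. In the bone, the level per kilobase of transcript was highest for Spp1, at 1188 ± 291 CPM per kilobase (SD, n = 20 tumors). C1qa followed at 126 ± 98.6 and Arg1 at 82.1 ± 40.6, then Cd68 at 61.9 ± 14.0, Csf1 at 35.9 ± 10.1 and Csf1r at 27.2 ± 11.2 on the same scale. Mrc1 stood at 18.2 ± 9.04 and Adgre1 at 14.9 ± 7.72 CPM per kilobase. Nos2, at 1.39 ± 1.40, and Cd163, at 0.425 ± 0.328, were the lowest of the 10 in the bone. Under the skin, Spp1 was again the highest, at 365 ± 41.9 CPM per kilobase (n = 4 tumors), while Mrc1 stood at 86.6 ± 53.3 and Cd163 at 7.46 ± 6.35. The sites were normalized apart and were not tested against each other.

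**Figure D1:**
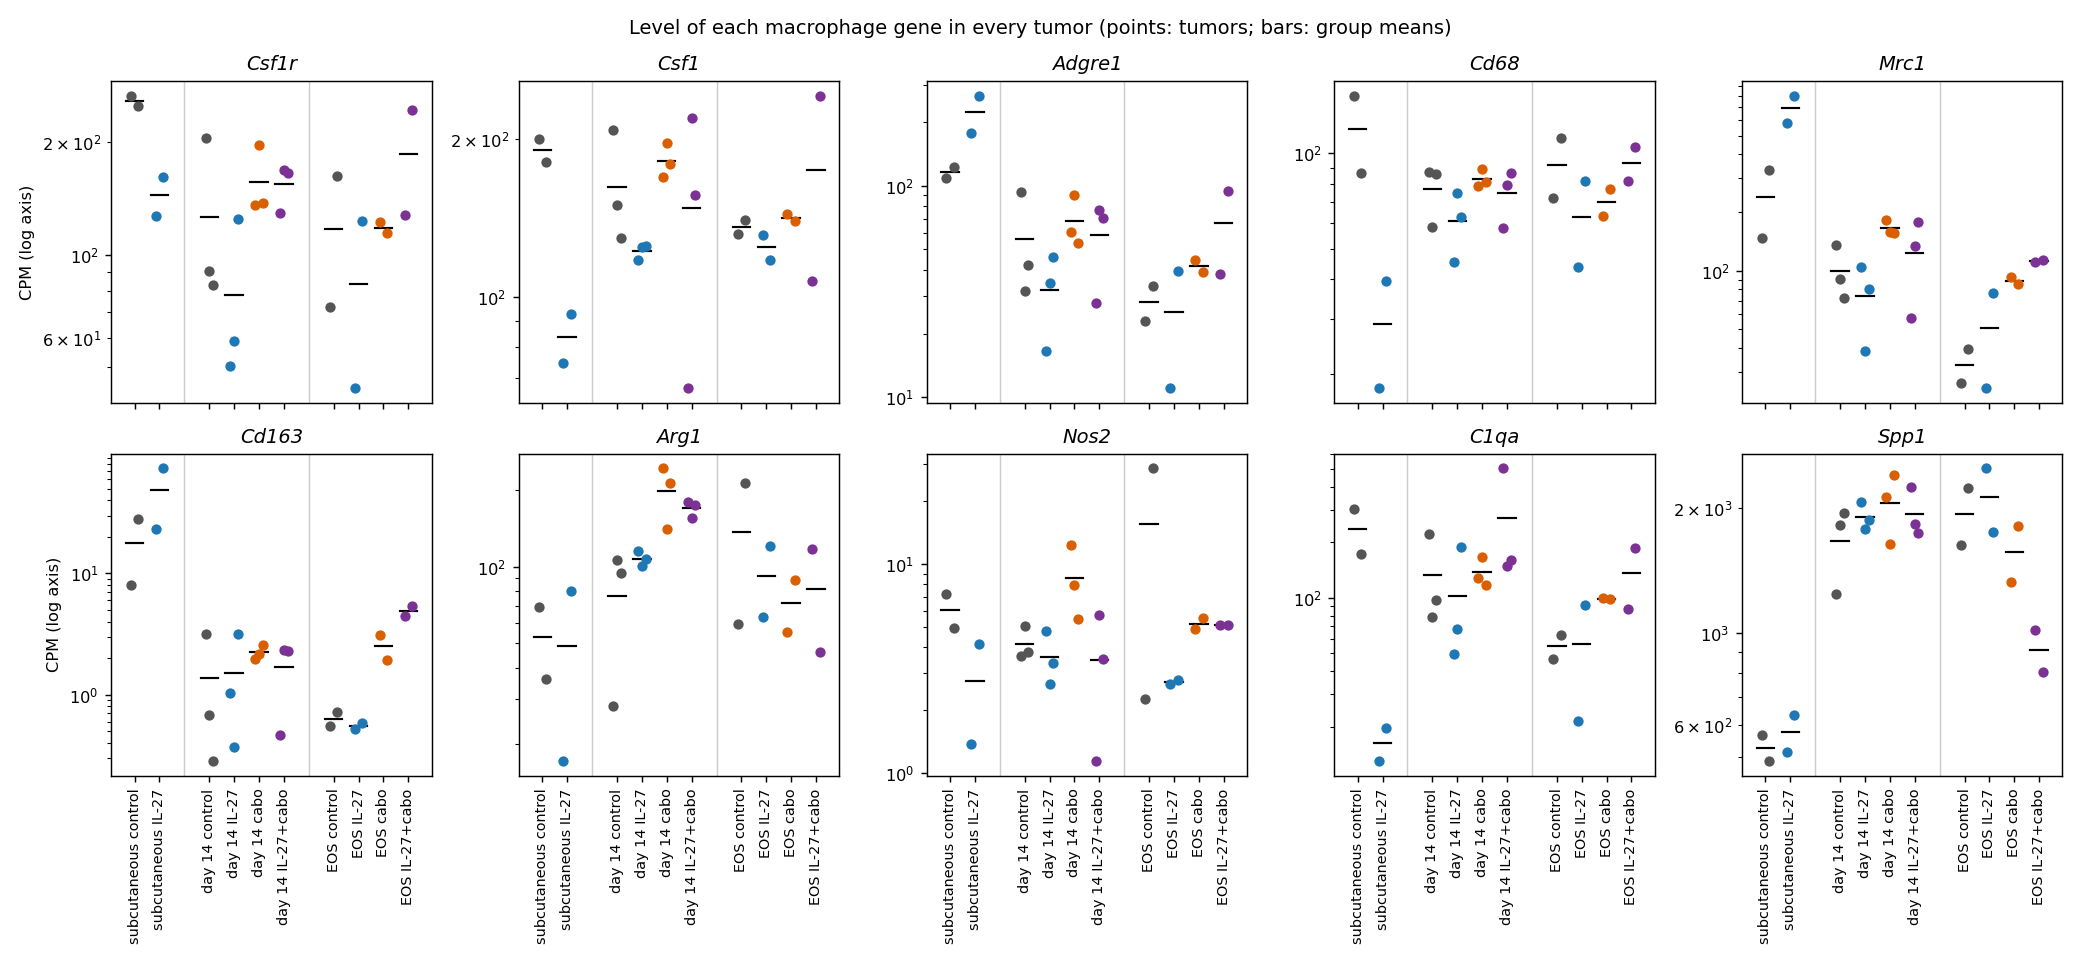
The plot gives the level of each gene in CPM on a log axis, with 1 point for each of the 24 tumors, a bar at each group mean, and grey lines between the subcutaneous, day 14 and EOS groups. Cd163 ranged from 0.283 to 5.39 CPM in the bone and from 7.98 to 73.5 CPM under the skin, and Spp1 from 802 to 2496 CPM in the bone and from 489 to 633 CPM under the skin.

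Most intratibial groups could not be set apart from the group next to them. With the 8 groups ordered by mean log2 CPM for each gene, 65 of the 70 steps between neighbors were within the larger of their SDs. The 5 larger steps were below the IL-27+cabo tumors of day 14, ranked the third, for Csf1r, below day 14 cabo for Mrc1, below EOS IL-27+cabo for Cd163, below EOS IL-27+cabo for Nos2, and above EOS IL-27+cabo, the lowest group, for Spp1. Of the 27 further macrophage identity genes examined, 23 had counts in every intratibial tumor and 25 in every subcutaneous one. Clec4f, a marker of liver Kupffer cells, had no count in any tumor, and Marco, Timd4 and Vsig4, markers of resident macrophages, had none in at least 1 intratibial tumor. Day 14 IL-27+cabo mouse 20 stood apart, with the fewest counts, the fewest genes detected (21269) and a correlation of 0.908 with another tumor of its group, the lowest found.

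Subcutaneous tumors addressed what IL-27 alone did to the tumor microenvironment. Before the correction for GC content given below, C1qa had the largest change of the 10 members: it stood at 301 and 172 CPM in the control tumors and at 12.997 and 19.7 CPM in the IL-27 tumors. The groups did not overlap, and C1qa was significantly downregulated (log2 fold change -3.86, standard error 0.45, edgeR quasi-likelihood test with Benjamini-Hochberg adjustment, adjusted p = 0.00225). Cd68 stood at 152 and 86.4 CPM in the controls and at 18.0 and 39.5 CPM with IL-27, and fell by 2.05 on the log2 scale (standard error 0.49, edgeR adjusted p = 0.0284). Csf1, the ligand, stood at 200.4 and 181 CPM in the controls and at 74.9 and 92.8 CPM with IL-27, and fell by 1.19 (standard error 0.32, edgeR adjusted p = 0.0418). These were the 3 members called of 10, all of them lower, where 20% of all 19360 genes tested were called and 16.5% were called lower. Without control replicate 1, which had the higher C1qa, Cd68 and Csf1, C1qa alone was called (-3.38, edgeR adjusted p = 0.0127), on the assumption that the lone control varies like the IL-27 tumors.

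The other members pointed both ways. Csf1r, the receptor, stood at 266 and 249.7 CPM in the controls and at 127 and 161 CPM with IL-27 (log2 fold change -0.84 ± 0.32 SE, unadjusted p = 0.0346, edgeR adjusted p = 0.111). Adgre1 stood at 109 and 123 CPM in the controls and higher, at 178 and 267 CPM, with IL-27 (log2 fold change 0.93 ± 0.35, edgeR adjusted p = 0.104). Mrc1 stood at 148 and 332 CPM in the controls and at 579 and 804 CPM with IL-27 (log2 fold change 1.53 ± 0.46, edgeR adjusted p = 0.0609). The 2 genes that mark the same lineage, Cd68 and Adgre1, thus had estimates of opposite sign in the same 4 tumors, as did Cd68 and Mrc1. With the called ones, 6 members had an unadjusted p under 0.05, against 35.4% of all genes, and 7 did not overlap between groups, against 66.9% of all genes. DESeq2 called 5 members, the 3 above with Adgre1 and Mrc1, where it called 32.5% of genes.

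Cd163, Arg1, Nos2 and Spp1 had no unadjusted p under 0.05 in these tumors. Cd163 stood at 7.98 and 27.9 CPM in the controls and at 23.1 and 73.5 CPM with IL-27, and Arg1 at 69.4 and 36.0 CPM against 17.1 and 80.5 CPM, both with overlap. Nos2 stood at 7.16 and 4.95 CPM in the controls and at 1.38 and 4.13 CPM with IL-27. Spp1 stood at 565 and 489 CPM in the controls and 515 and 633 CPM with IL-27.

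The sign of these changes went with the base composition of the transcripts. The 5 members with a GC content between 52.9% and 59.5%, which were Cd68, Nos2, Csf1, Csf1r and C1qa, all had negative estimates, from -3.86 to -0.84. The 5 with a GC content between 43.3% and 47.9%, which were Spp1, Mrc1, Adgre1, Arg1 and Cd163, had estimates between -0.11 and 1.53. Over all genes tested the median log2 fold change was 0.85 in the 4835 genes of lowest GC content and -2.05 in the 4834 of highest GC content. After a correction that took out the dependence on GC and on transcript length in every library, no member was called: C1qa came to -1.01 (edgeR adjusted p = 0.0834), Cd68 to -1.22 (0.100), Csf1 to 0.12 (0.855) and Csf1r to 0.47 (0.369). Mrc1 then came to 0.80 (edgeR adjusted p = 0.206) and Adgre1 to 0.57 (0.299), while Spp1 moved from 0.12 to -0.66 and Nos2 from -1.14 to -0.01.

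**Figure D2:**
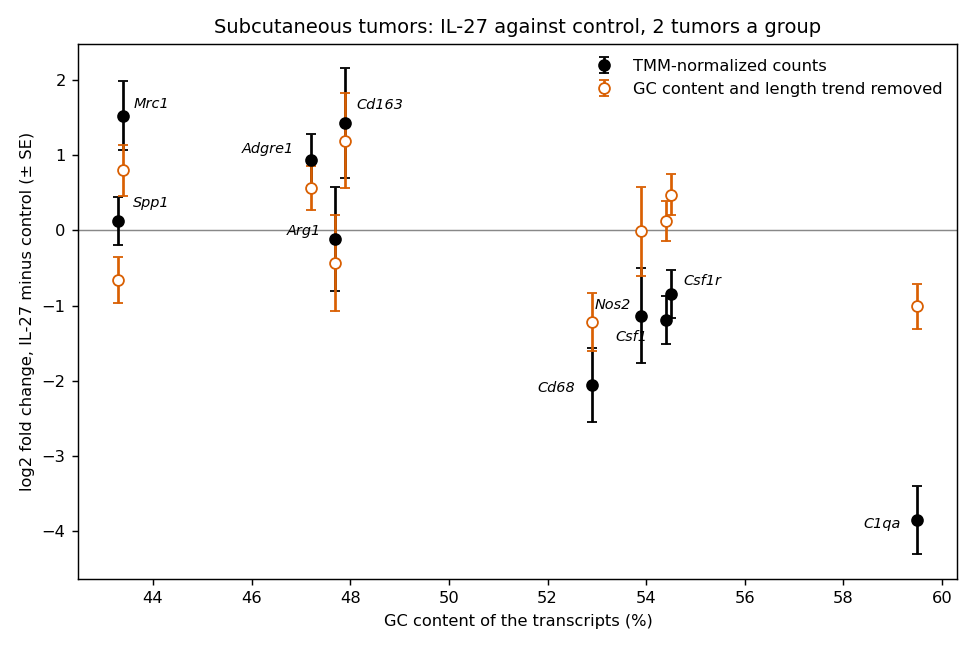
Each gene's log2 fold change of IL-27 over control in the subcutaneous tumors (vertical axis, ± SE, 2 tumors a group) is plotted against the GC content of its transcripts in percent (horizontal axis). Filled points are from TMM-normalized counts and open points are corrected for GC and transcript length: the filled points lie below 0 for all 5 genes above 50% GC, and C1qa moves from -3.86 to -1.01.

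The genes around the members in their pathways also went both ways under the skin, where 3.52% of all genes were called higher and 16.5% lower. C1qb fell from 351 and 160 CPM to 22.5 and 40.1 CPM (log2 fold change -3.03 ± 0.52, edgeR adjusted p = 0.00786) and C1qc from 124 and 86.8 to 4.61 and 6.64 CPM (-4.23 ± 0.41, adjusted p = 0.00149), so that all 3 C1q chains fell, and their GC contents were 57.4%, 57.5% and, for C1qa, 59.5%. Il34, the second ligand of CSF1R, fell by 2.96 on the log2 scale (standard error 0.43, edgeR adjusted p = 0.0042) and also had a high GC content, of 57.0%. Ccr2, the chemokine receptor of inflammatory monocytes, rose by 2.22 (standard error 0.50, edgeR adjusted p = 0.0221). In the classical activation list 9 of 17 genes tested rose and 3 fell, with a median log2 fold change of 2.00 against 0.04 over all genes and 0.85 and 0.38 in the 2 groups of genes lowest in GC content. Il1b, Chil3 and Retnla, named here among the genes that rose, had GC contents of 46.3%, 45% and 46.7%. Among those that rose were Cxcl9, an interferon-induced chemokine (2.72 ± 0.46, edgeR adjusted p = 0.0072), Il6 (2.85 ± 0.53, adjusted p = 0.0105) and Il1b (2.22 ± 0.43, adjusted p = 0.0121), both inflammatory cytokines. In the alternative activation list 3 of 18 rose and 3 fell: Chil3, a chitinase-like protein, rose by 2.33 (standard error 0.43, edgeR adjusted p = 0.0104), whereas Stab1, a scavenger receptor, fell by 4.46 (standard error 0.36, adjusted p = 0.00138). Retnla rose as well (4.06 ± 1.11, edgeR adjusted p = 0.0432), from 0.502 and 0.354 CPM to 1.203 and 13.1 CPM. Of the lipid-associated list, 3 of 14 fell and none rose, among them Apoe by 4.73 (standard error 0.40, edgeR adjusted p = 0.00138) and Trem2, a lipid receptor, by 1.87 (standard error 0.44, adjusted p = 0.0263). Of the CSF1 axis and monocyte recruitment list 1 of 10 rose and 3 fell, of the other macrophage identity genes 2 of 26 rose and 6 fell, of the complement list 1 of 8 rose and 2 fell, and of the arginine list 3 of 11 fell. C1qb and C1qc are in both the identity and the complement list, so that their falls are counted in both.

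Other cell types moved with IL-27 under the skin. All 15 skeletal muscle markers were higher and 14 were called, with a summed level of 4.50 to 14.5 CPM in the controls and 415 to 1097 CPM with IL-27, and Myh2 had no count in either control. Of 8 marrow neutrophil markers tested 5 rose, with sums of 1.79 to 3.16 CPM in the controls and 39.1 to 40.6 CPM with IL-27, while Camp, Elane, Ltf and Mpo had no count in at least 1 tumor. T and NK markers summed to 9.27 to 10.7 CPM in the controls and 33.0 to 34.8 CPM with IL-27, with 2 of 8 called and none at 0. Epithelial tumor markers went down, from 26.8 to 75.4 CPM in the controls to 4.26 to 12.2 CPM with IL-27 and 2 of 5 called lower. Mast cell markers summed to 35.2 to 41.8 CPM in the controls and 68.1 to 95.7 CPM with IL-27, with 1 of 5 called, lower, and 3 higher at an unadjusted p under 0.05. These sums and calls, like those of the pathway genes above, come from counts without the correction for GC content and length. Fold changes over all genes went with GC content under the skin, as given above. The part of these cells in the members' changes was not tested.

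Day 14 in the bone was the time at which all 4 treatments were compared in 3 mice each. In the cabo tumors all 10 members had estimates above the controls, with a median log2 fold change of 0.29 against -0.01 over all genes. No member was called by edgeR, where 1.89% of 18627 genes were, and 3 members had an unadjusted p under 0.05, against 18.9% of genes. Those 3, Mrc1, Arg1 and Nos2, were also the 3 whose groups did not overlap, against 26.9% of genes. Mrc1 stood at 136, 90.6 and 72.1 CPM in the controls and at 182, 159 and 156 CPM with cabo (log2 fold change 0.72 ± 0.21 SE, unadjusted p = 0.00861, edgeR adjusted p = 0.133). Arg1 stood at 28.3, 106 and 94.5 CPM in the controls and at 244, 140 and 213 CPM with cabo (1.36 ± 0.45, unadjusted p = 0.0169, adjusted p = 0.170). Its estimate turned negative in a fit with the muscle markers' mean as a covariate, an extrapolation since muscle levels did not overlap. Nos2 stood at 3.65, 5.07 and 3.80 CPM in the controls and at 12.3, 7.94 and 5.45 CPM with cabo (1.02 ± 0.30, unadjusted p = 0.0104, adjusted p = 0.142). Cd163 overlapped, and 3 of 10 is close to the share of all genes. DESeq2 called 2 of the 3, Mrc1 (adjusted p = 0.00937) and Nos2 (0.0172), where it called 9.31% of genes. Without control mouse 3, which had the highest Mrc1 and the lowest Arg1 of its group, edgeR called Mrc1 (0.99, adjusted p = 0.0202).

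The lineage genes were less separated at day 14. Csf1r stood at 205, 90.5 and 82.9 CPM in the controls and at 136, 196 and 138 CPM with cabo, and Adgre1 at 93.3, 32.0 and 42.2 CPM against 60.1, 90.2 and 53.7 CPM. In both genes control mouse 3 was the highest of the 6 tumors. C1qa followed the same pattern, at 222, 78.8 and 97.7 CPM in the controls and 128, 167 and 117 CPM with cabo. Cd163 was at 3.18 CPM in that same mouse and at 0.686 and 0.283 CPM in the other controls, against 1.97, 2.18 and 2.55 CPM with cabo. Csf1 ranged from 130 to 208 CPM in the controls and from 169 to 196 CPM with cabo, Cd68 from 58.5 to 87.0 and from 78.6 to 88.9 CPM, and Spp1 from 1243 to 1944 and from 1641 to 2409 CPM.

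Pathway genes beyond the members passed the test with cabo at day 14, where 1.2% of all genes were called higher. Itgam, the integrin CD11b of monocytes and neutrophils, rose by 1.11 (standard error 0.12, edgeR adjusted p = 0.00586) and was the only one called of 26 further identity genes tested. In the alternative activation list 4 of 17 rose, among them Tgm2, a transglutaminase (0.83 ± 0.08, edgeR adjusted p = 0.00448), Il13ra1, a receptor chain for IL-13 (0.59 ± 0.10, adjusted p = 0.0295), and F13a1, a coagulation factor subunit made by tissue macrophages (1.42 ± 0.25, adjusted p = 0.0376). In the classical list 2 of 18 rose, Il1b, which stood at 7.79, 5.55 and 3.51 CPM in the controls and 13.5, 17.1 and 17.6 CPM with cabo (1.50 ± 0.27, edgeR adjusted p = 0.0416), and Ccl5, a T cell chemokine (0.91 ± 0.16, adjusted p = 0.0401). One gene in each of the CSF1 axis (Csf2rb, 0.85 ± 0.16, edgeR adjusted p = 0.044) and lipid-associated lists (Fn1, 0.91 ± 0.14, adjusted p = 0.0234) rose, and none of the 8 complement or 11 arginine metabolism genes was called. Skeletal muscle markers moved with these values: all 15 were higher and 5 were called, with sums of 6.47 to 151 CPM in the controls and 1196 to 1864 CPM with cabo, and Mb, Myh2, Myoz1, Pvalb and Tnnc2 had no count in at least 1 intratibial tumor. The mean log2 CPM of the muscle markers was -1.83 to 2.42 in the controls and 5.26 to 5.79 with cabo, with no overlap, so that muscle content and cabo cannot be told apart in these tumors. T and NK markers went the other way, from 43.6 to 51.4 CPM in the controls to 12.9 to 20.4 CPM with cabo and 3 of 8 called lower, with Cd3g, Cd8a, Cd8b1 and Klrb1c at 0 in at least 1 intratibial tumor. Osteoclast markers summed to 290 to 437 CPM in the controls and 206 to 315 CPM with cabo, with 1 of 9 called lower. Endothelial markers summed to 162 to 267 and 125 to 140.3 CPM, with 2 of 6 called lower, and fibroblast markers to 5783 to 6816 and 8384 to 8924 CPM, with 1 of 6 called higher. Mast cell markers summed to 11.2 to 13.2 CPM in the controls and 5.09 to 5.98 CPM with cabo, with none called by edgeR and 4 of 5 lower at an unadjusted p under 0.05. The part of these other cells in the members' values was not tested.

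IL-27 alone left no member past a threshold at day 14. By edgeR 0 of 10 members were called and 0 had an unadjusted p under 0.05, DESeq2 called 0, and over all 18519 genes 0% were called and 2.76% had an unadjusted p under 0.05. Csf1 stood at 118, 124 and 125 CPM with IL-27, below the 130 to 208 CPM of the controls. Mouse 8 was the highest of the IL-27 tumors for Csf1r (125 CPM against 50.3 and 58.8), C1qa (188 against 49.3 and 67.9), Adgre1 (45.8 against 16.5 and 34.5) and Cd163 (3.15 against 1.03 and 0.371). It also stood apart in muscle content, with a mean log2 CPM of the muscle markers of 6.41 against 0.26 and 1.47 in the others, whose part in these values was not tested.

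The IL-27+cabo tumors of day 14 had 1 member with an unadjusted p under 0.05 against the controls, Arg1, and 0 called by edgeR or DESeq2, where 6.2% and 0.064% of genes passed the unadjusted and the adjusted threshold in edgeR. Arg1 stood at 180, 155 and 175 CPM, above all controls (log2 fold change 1.17 ± 0.47, unadjusted p = 0.0441, edgeR adjusted p = 0.791). The fit with the muscle covariate turned this estimate negative as well, again as an extrapolation. Muscle markers summed to 1546 to 4959 CPM here, and their mean log2 CPM, 5.50 to 7.67, did not overlap with the controls either. C1qa reached 503 CPM in mouse 20, the tumor that stood apart, and 149 and 160 CPM in mice 22 and 24. That mouse also had the lowest Csf1 (66.8 CPM against 219.5 and 156), Nos2 (1.14 against 5.73 and 3.53), Mrc1 (56.8 against 134 and 179), Adgre1 (27.8 against 76.4 and 70.7) and Cd163 (0.468 against 2.36 and 2.30) of its group. Over all genes the median log2 fold change over the controls was -0.07 in the 4682 of lowest GC content and 0.23 in the 4682 of highest. C1qa has the highest GC content of the members (59.5%), and the part of GC content in the values of mouse 20 was not tested. Against IL-27 alone, Csf1r (129, 168 and 165 CPM, log2 fold change 0.96 ± 0.38, unadjusted p = 0.0398) and Arg1 (0.64 ± 0.22, unadjusted p = 0.02) were higher, with an adjusted p of 0.916 for each in edgeR. There 0 members were called by either tool, and 0% of genes were called and 4.85% had an unadjusted p under 0.05. Against cabo alone 0 members had an unadjusted p under 0.05 in edgeR and 1 had in DESeq2, 0 were called by either tool, and 1.92% and 0% of genes passed the unadjusted and the adjusted threshold. The interaction of IL-27 and cabo, which asks whether the combination departs from the sum of its parts on the log2 scale, had 0 members under either threshold in either tool, where 1.88% of genes had an unadjusted p under 0.05 and 0% were called.

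At EOS the scavenger receptors Cd163 and Mrc1 separated the groups that had received cabo from those that had not. Cd163 stood at 0.551 and 0.716 CPM in the controls, 0.524 and 0.585 with IL-27, 3.09 and 1.95 with cabo, and 4.45 and 5.39 CPM with IL-27+cabo, from 37 to 401 counts a tumor. Both IL-27+cabo tumors were above every other EOS tumor (log2 fold change over control 2.94 ± 0.37, unadjusted p = 5.83e-05, edgeR adjusted p = 0.135), and cabo alone stood between (1.98 ± 0.35, unadjusted p = 0.000641, adjusted p = 0.404). Mrc1 stood at 26.3 and 39.2 CPM in the controls, 24.6 and 76.4 with IL-27, 92.6 and 84.9 with cabo, and 111 and 114 CPM with IL-27+cabo. Its log2 fold change over control was 1.77 ± 0.47 with IL-27+cabo (unadjusted p = 0.00593, edgeR adjusted p = 0.201) and 1.43 ± 0.46 with cabo (unadjusted p = 0.0157, adjusted p = 0.485). Spp1 went the other way in the combination, at 1014 and 802 CPM, below the controls at 1632 and 2236 CPM (-1.10 ± 0.25, unadjusted p = 0.00276, adjusted p = 0.191). It stood at 1329.6 and 1812 CPM with cabo and at 2496 and 1753 CPM with IL-27.

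These EOS estimates did not pass the adjusted threshold in edgeR. With IL-27+cabo 0 members were called and 3 had an unadjusted p under 0.05, against 0% and 14.2% of 20026 genes, and 5 members did not overlap between the groups, against 42.2% of genes. DESeq2 called 3, Cd163 (adjusted p = 1.07e-08), Mrc1 (0.00174) and Spp1 (0.00134), where it called 5.8% of genes. With cabo alone 0 were called and 2 had an unadjusted p under 0.05, against 0% and 8.9% of genes, and DESeq2 called 2, Cd163 (0.00164) and Mrc1 (0.0457), where it called 1.37%. The comparisons share their control tumors, so that they are not separate evidence. With IL-27 alone 0 members were called by either tool and 1 had an unadjusted p under 0.05, Nos2, against 0% and 3.25% of genes. Nos2 stood at 28.7 CPM in EOS control mouse 9 and 2.27 CPM in mouse 13, against 2.66 and 2.78 CPM with IL-27, so that the groups overlapped (-2.52 ± 0.93, unadjusted p = 0.0276, edgeR adjusted p = 1). Without mouse 9 it came to 0.26 and without mouse 13 to -3.41 (edgeR adjusted p = 0.0246), so that 1 control decided its sign, and in both fits the lone control is assumed to vary like the other EOS groups. Mouse 9 was also the higher of the 2 EOS controls in Arg1 (214 against 59.7 CPM), Csf1r (162 against 72.6 CPM), Cd68 (112 against 72.1 CPM) and Il1b (19.3 against 0.702 CPM).

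Other macrophage genes at EOS with IL-27+cabo are given for comparison. In the identity list 23 of 26 further genes had estimates above the controls, with a median log2 fold change of 1.02 against 0.00 over all genes, and 9 had an unadjusted p under 0.05, of which 8 were higher, against 14.2% of all genes, but none was called by edgeR. Fcgr1, the high-affinity IgG receptor, was at 2.52 ± 0.69 (edgeR adjusted p = 0.206) and Siglec1, a sialic acid receptor of macrophages, at 2.66 ± 0.87 (adjusted p = 0.257). In the lipid-associated list, where 9 of 14 estimates were below the controls, stood Lgals3 (-1.08 ± 0.22, edgeR adjusted p = 0.178) and Gpnmb (-1.58 ± 0.45, adjusted p = 0.211). Ly6c2, a mark of inflammatory monocytes, was at 4.29 ± 0.97 (adjusted p = 0.188). Osteoclast markers, which share a myeloid origin with macrophages and make Spp1, summed to 643 to 1600 CPM in the EOS controls and 610 to 1074 CPM with IL-27+cabo, with 4 of 9 higher and Calcr at 0 in at least 1 tumor. Muscle markers summed to 7.0 to 12.8 CPM in the controls, 122 to 926 CPM with cabo and 107 to 232 CPM with IL-27+cabo, with all 15 higher in both. Endothelial markers summed to 136 to 228 CPM in the controls, 241 to 296 CPM with cabo and 239 to 359 CPM with IL-27+cabo, and T and NK markers to 8.07 to 9.65, 5.08 to 5.83 and 4.30 to 6.39 CPM, with none of either called by edgeR. Their part in the values of Cd163, Mrc1 and Spp1 was not tested.

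**Figure D3:**
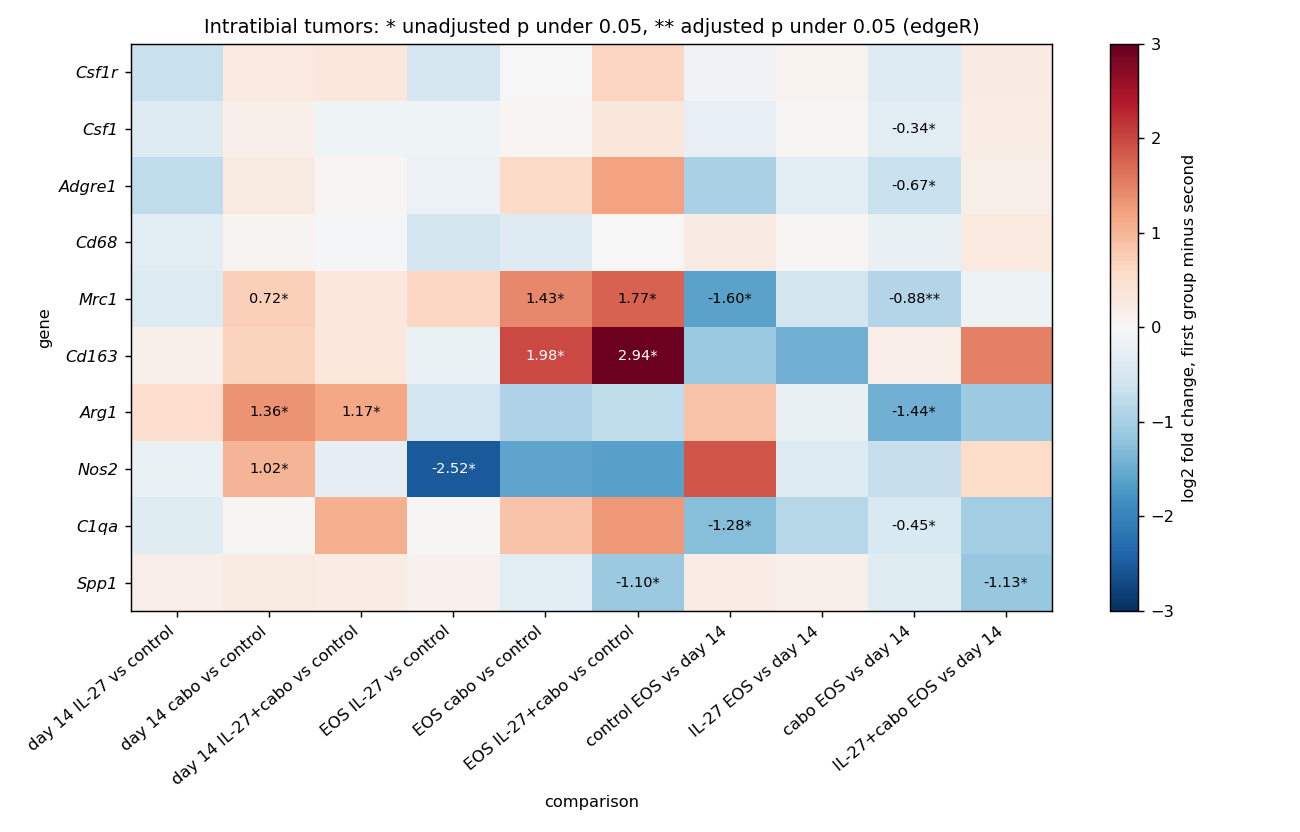
The heat map gives the log2 fold change of each gene (rows) in 10 intratibial comparisons (columns), red where the group named first was higher and blue where it was lower. Values are printed where the unadjusted p was under 0.05, and the sole pair of stars, Mrc1 in cabo tumors at EOS against day 14 (-0.88), marks an adjusted p under 0.05 in edgeR.

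Between day 14 and EOS, the clearest differences were in the cabo tumors. Mrc1 was significantly lower at EOS, at 92.6 and 84.9 CPM against 182, 159 and 156 CPM (log2 fold change -0.88 ± 0.09 SE, edgeR adjusted p = 0.00998), the only member called in any intratibial comparison by edgeR. That is 1 of 10 members, where 2.09% of 19144 genes were called and 1.14% were called lower. The call was lost without EOS cabo mouse 23 (-0.82, adjusted p = 0.0651) and when all intratibial groups shared a fit (-0.90, adjusted p = 1). Mrc1 was lower at EOS in the controls as well (-1.60), and the test of whether the cabo effect on it differed between the time points gave an unadjusted p of 0.319 (edgeR adjusted p = 0.9999). Arg1 stood at 55.2 and 88.8 CPM at EOS against 140 to 244 CPM at day 14 (-1.44 ± 0.29, edgeR adjusted p = 0.0605), and was called without day 14 mouse 25 (-1.64, adjusted p = 0.0364). Csf1 was at 144 and 139 CPM against 169 to 196 CPM (-0.34 ± 0.08, unadjusted p = 0.00459, adjusted p = 0.101). Adgre1 was at 44.5 and 39.3 CPM against 53.7 to 90.2 CPM (-0.67 ± 0.22, unadjusted p = 0.0179), and C1qa at 99.6 and 98.4 CPM against 117 to 167 CPM (-0.45 ± 0.15, unadjusted p = 0.0197). In all, 9 of 10 estimates were below 0, 5 members had an unadjusted p under 0.05, against 17.6% of genes, and 7 did not overlap, all lower at EOS, against 36.6% of genes. DESeq2 called 5, where it called 10.3% of genes.

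Genes around the members were also called in the cabo tumors, where 1.14% of all genes were called lower at EOS and 0.945% higher. In the classical list 7 of 18 fell and none rose, with a median log2 fold change of -1.26 against 0.01 over all genes. Il1b fell to 2.17 and 2.26 CPM (-2.83 ± 0.18, edgeR adjusted p = 0.00181), Ccl5 by 1.85 (standard error 0.14, adjusted p = 0.00374) and Fpr2, a formyl peptide receptor, by 2.90 (standard error 0.35, adjusted p = 0.0146). Of the 10 CSF1 axis and recruitment genes 6 fell, among them the monocyte chemokines Ccl7 by 1.89 (standard error 0.15, edgeR adjusted p = 0.00421) and Ccl2 by 1.15 (standard error 0.12, adjusted p = 0.0109). In the alternative list 6 of 18 fell and 1 rose, with Il4ra, the IL-4 receptor chain, at -1.03 ± 0.08 (edgeR adjusted p = 0.00426), F13a1 at -1.61 ± 0.15 (adjusted p = 0.00742) and Tgm2 at -0.79 ± 0.09 (adjusted p = 0.0109). Itgam fell by 1.04 (standard error 0.11, adjusted p = 0.00998), as 1 of 26 further identity genes, and 1 complement gene of 8 fell, C1ra (-1.91 ± 0.35, adjusted p = 0.0494). Nos3, the endothelial nitric oxide synthase, rose by 1.95 (standard error 0.24, adjusted p = 0.0172), and all 6 endothelial markers were higher, 4 of them called, with sums of 125 to 140.3 CPM at day 14 and 241 to 296 CPM at EOS and no marker at 0. T and NK markers summed to 12.9 to 20.4 CPM at day 14 and 5.08 to 5.83 CPM at EOS, with 1 of 8 called lower. Muscle markers summed to 1196 to 1864 CPM at day 14 and 122 to 926 CPM at EOS, with 15 of 15 estimates lower and none called by edgeR (5 with an unadjusted p under 0.05). Fibroblast markers summed to 8384 to 8924 and 5043 to 5549 CPM, with 2 of 6 called lower. Marrow neutrophil markers summed to 2.62 to 4.44 CPM at day 14 and 0.444 to 1.11 CPM at EOS, and just 1 of the 10 had counts in every intratibial tumor. Mast cell markers summed to 5.09 to 5.98 and 11.9 to 15.3 CPM, with 1 of 5 called higher. Cma1 and Mcpt4 among the mast cell markers were at 0 in at least 1 intratibial tumor. The part of these cells in the members' values was not tested.

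The other treatments gave fewer differences with time. In the controls, Mrc1 stood at 26.3 and 39.2 CPM at EOS against 72.1 to 136 CPM at day 14 (-1.60 ± 0.30, unadjusted p = 0.00114, edgeR adjusted p = 0.138), and C1qa at 46.5 and 62.8 CPM against 78.8 to 222 CPM (-1.28 ± 0.44, unadjusted p = 0.0226, adjusted p = 0.305). These 2 were the members that did not overlap and that had an unadjusted p under 0.05, against 33.5% and 13.1% of genes. No member was called by edgeR, where 0.104% of genes were, and DESeq2 called 1, Mrc1 (adjusted p = 2.63e-05), where it called 4.52%. T and NK markers in the controls summed to 43.6 to 51.4 CPM at day 14 and 8.07 to 9.65 CPM at EOS, with 3 of 8 called lower. In the IL-27 tumors 0 members were called or had an unadjusted p under 0.05 by either tool, against 0% and 5.05% of genes in edgeR. In the IL-27+cabo tumors 1 had an unadjusted p under 0.05, Spp1, which stood at 1014 and 802 CPM at EOS against 1836 and 1739 CPM, and 2245 CPM in mouse 20, at day 14 (-1.13 ± 0.33, unadjusted p = 0.0136, edgeR adjusted p = 0.755; -0.98 and 0.174 without mouse 20), and 0 were called by either tool, against 3.83% and 0% of genes. Of 9 osteoclast markers, 9 had estimates above 0 at EOS in the control, IL-27 and IL-27+cabo tumors and 6 in the cabo tumors, and 6, 7, 7 and 3 of these had an unadjusted p under 0.05, but edgeR called none of them.

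Whether a treatment effect differed between the time points was tested as a difference of differences. For cabo, Arg1 was above its controls at day 14 and not at EOS, and the effects differed by -2.31 ± 0.78 on the log2 scale (unadjusted p = 0.00885, edgeR adjusted p = 0.938). It includes EOS control mouse 9 (214 CPM against 59.7 CPM in mouse 13) and day 14 control mouse 3 (28.3 CPM against 106 and 94.5 CPM), and was not fitted without either. Nos2 gave -2.61 ± 1.02 (unadjusted p = 0.021, adjusted p = 0.9999). It includes EOS control mouse 9 (28.7 CPM against 2.27 CPM in mouse 13) and was not fitted without that mouse. For IL-27+cabo, Spp1 gave -1.31 ± 0.35 (unadjusted p = 0.00166, edgeR adjusted p = 0.326), Arg1 -1.90 ± 0.77 (unadjusted p = 0.0254, adjusted p = 0.504) and Mrc1 1.47 ± 0.69 (unadjusted p = 0.0485, adjusted p = 0.545). These 3 include mouse 20, with 2245 CPM of Spp1 and 56.8 CPM of Mrc1, and for Arg1 the same control mice 9 and 3 as with cabo, and were not fitted without them. For IL-27 alone, Nos2 gave -2.30 ± 1.02 (unadjusted p = 0.0387, edgeR adjusted p = 0.99998), which also includes EOS control mouse 9 and was not fitted without it. No member was called by edgeR in any of these, where the share of the 21563 genes called was 0% for the IL-27 effect and 0.0788% for the effect of cabo and of the combination alike. The unadjusted counts of 1, 2 and 3 members stand against 1.93%, 4.11% and 9.14% of genes. DESeq2 called Spp1 for IL-27+cabo (adjusted p = 0.0411), where it called 1.09% of genes, and none for the others.

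Across the 20 intratibial tumors the members fell into patterns of likeness, given as a description of log2 CPM in libraries that share groups and treatments. Csf1r and Adgre1 were the most alike pair (Pearson's r = 0.88, Spearman's rho = 0.82). Csf1r also went with Cd68 (r = 0.74) and C1qa (r = 0.74), and Adgre1 with Mrc1 (r = 0.74). Of the 45 pairs 34 had a positive r. Spp1 had a negative r with 7 of the other 9 members, the lowest with Cd163 (r = -0.59), and a positive one with Arg1 (r = 0.58).

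**Figure D4:**
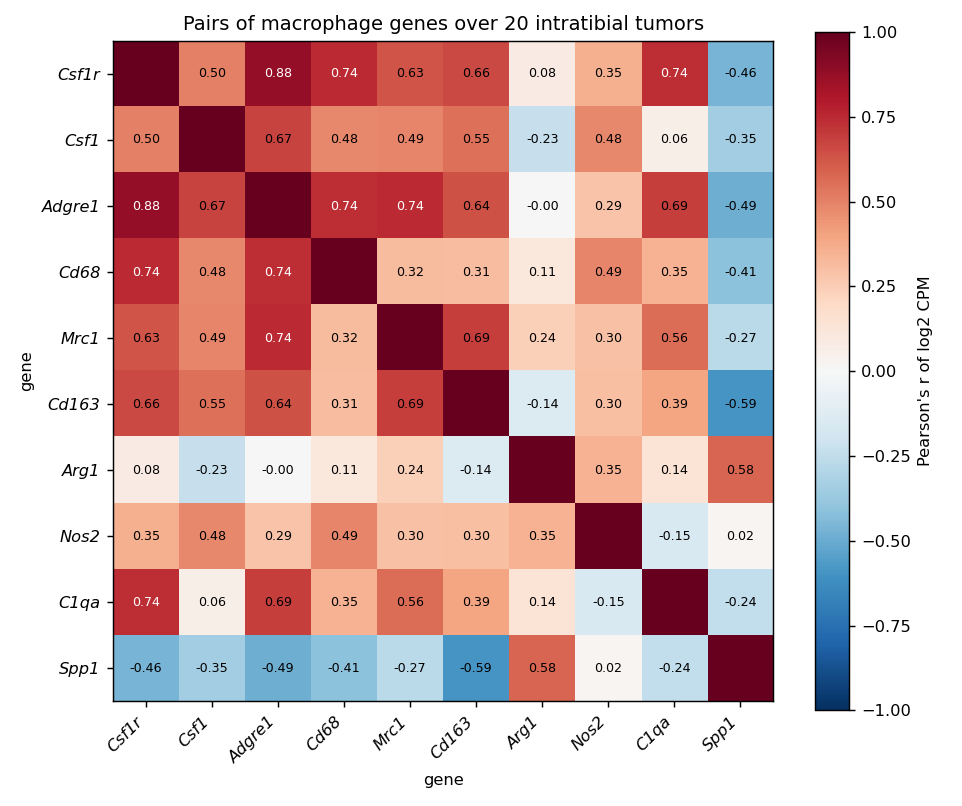
The grid gives Pearson's r of log2 CPM for each pair of the 10 genes over the 20 intratibial tumors, from blue (-1) through white to red (1). All pairs among Csf1r, Csf1, Adgre1, Cd68, Mrc1, Cd163 and C1qa are positive, while the row of Spp1 is mostly blue, with Arg1 (0.58) its highest.

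The genes most like each member were sought among 21563 genes by Pearson's r over the same 20 tumors. For C1qa they were C1qb (r = 0.996) and C1qc (r = 0.984), the other chains of C1q whose promoters are shown above, and Ms4a7 (r = 0.981), a macrophage membrane protein. In mouse 20 C1qb was at 532 CPM beside C1qa at 503 CPM, but C1qc was lower, at 283 CPM, whereas in mouse 22 they stood at 154, 149 and 129 CPM. For Adgre1 they were Mpeg1, which encodes perforin-2 (r = 0.965), Irf5 (r = 0.959) and Lair1 (r = 0.953). Csf1r was most like Myo1f (r = 0.947), Sirpa (r = 0.939) and Pik3r6 (r = 0.937), and Mrc1 most like F13a1 (r = 0.923), Cd300ld5 (r = 0.914) and Cacna1d (r = 0.914). For Csf1 the nearest were Cep126 (r = 0.937), Met (r = 0.929), the hepatocyte growth factor receptor that cabozantinib inhibits, and Atp10a (r = 0.919). Cd68 had weaker neighbors, Ticam2 (r = 0.884), Gm45606 (r = 0.857) and Gm2a (r = 0.831), as did Arg1, with Smtnl2 (r = 0.874), Ccl6 (r = 0.850) and Fgf18 (r = 0.839). Nos2 was most like Nfkbia, an inhibitor of NF-kB (r = 0.867), Adamts7 (r = 0.843) and Ltbp1 (r = 0.842), and Spp1 most like Noxa1 (r = 0.861), Tmem163 (r = 0.839) and Cacnb3 (r = 0.830). For Cd163, the least abundant member in the bone, the nearest were Hmgb3 (r = 0.872), Vti1a (r = 0.868) and Dna2 (r = 0.867).

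The genes lie on 9 chromosomes of GRCm38 in the GENCODE M21 annotation, among them C1qa at chr4:136895917-136898803 on the minus strand, Mrc1 at chr2:14229392-14332057 on the plus strand and Spp1 at chr5:104435118-104441050 on the plus strand. Csf1r overlaps Hmgxb3 on the other strand and Mir6983 on its own, Mrc1 contains Mir511 and Spp1 overlaps Gm42793 on its own strand, so that their counts are uncertain to the extent that reads were shared, which the counting method, not given in the sources used here, would decide.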

How the data were processed

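Poly(A) RNA from tumor sections was sequenced with a stranded kit, and the authors deposited 1 table of raw counts per gene for all 24 tumors. The submitters' processing notes name FastQC, HISAT2, StringTie, DESeq2 and the human build GRCh38; the mouse build, annotation and counting settings are not given in the sources used here. Of 55401 Ensembl identifiers 55141 matched GENCODE M21. Genes passing filterByExpr were TMM-normalized and tested with edgeR 4.0.16 (R 4.3.3, quasi-likelihood test, Benjamini-Hochberg over all genes tested, threshold 0.05); log2 CPM used a prior count of 2. Alternatives were DESeq2 1.42.0, RLE normalization, no filter, a per-library correction for GC and transcript length (splines with 5 degrees of freedom), a replicate block, a muscle covariate, 1 fit over all intratibial groups, and leaving out each tumor. Named are the 10 members, C1qb, C1qc, Il34, Trem2, Gpnmb, Il1b, Chil3, Retnla, up to 3 genes of smallest p per pathway list and comparison, and the 3 most alike genes per member; a member's fold change is given where its unadjusted p was under 0.05. Members and lists were chosen with earlier results of these data known. One list of markers of another cell type is not reported here.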

Additional observations from a re-analysis of the deposited data

How the results depend on the processing

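Counts of members called at an adjusted p under 0.05 moved as follows. Subcutaneous IL-27 against control had 3 in edgeR with TMM, 5 in DESeq2, 1 without the filter on low counts, 0 with the GC content and length trend removed, 4 with the replicate block, and 1 with the replicate block and that correction together. Leaving out 1 tumor gave 1 to 4, the lowest without control replicate 1, when only C1qa was called. The labels do not say what the replicate numbers of the subcutaneous tumors mark. The deviations of same-numbered tumors had a correlation of 0.0313 over 19360 genes, which with 2 tumors a group cannot show whether the numbers mark a pairing. The block added Mrc1 (1.62, edgeR adjusted p = 0.0178) and Cd163 and dropped Csf1. DESeq2 called 2 members for day 14 cabo, 2 for EOS cabo, 3 for EOS IL-27+cabo, 1 for control EOS against day 14, 5 for cabo EOS against day 14 (edgeR 1) and 1 for the difference of the IL-27+cabo effect, each 0 in edgeR unless given. Leaving out 1 tumor gave 0 to 1 for day 14 cabo, 0 to 1 for EOS IL-27 and 0 to 2 for cabo EOS against day 14, where a shared fit of all intratibial groups gave 0. The other comparisons stayed at 0 under the alternatives run, which for the interaction and the differences of effects did not include leaving out a tumor. Where that left 1 tumor in a group, it is assumed to vary like the others.

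Of 32 fold changes with an unadjusted p under 0.05, 7 alternative values of 290 changed sign. With the GC content and length trend removed, subcutaneous Csf1r came to 0.47 and Csf1 to 0.12, and to 0.47 and 0.12 with the block added. With the muscle covariate, day 14 Arg1 came to -0.62 with cabo and -0.81 with IL-27+cabo, which are extrapolations since muscle levels do not overlap between these groups and the controls, and without EOS control mouse 9 Nos2 came to 0.26 with IL-27 (-3.41 without mouse 13). Subcutaneous Csf1 lost its call without either IL-27 tumor or control replicate 1, and with RLE, no filter or the block, at adjusted p between 0.0505 and 0.341, and Cd68 lost its call without the filter (adjusted p = 0.0536), without control replicate 1 (-1.57) or IL-27 replicate 1 (-1.60), and with the correction, alone or with the block, as C1qa did with the correction in both. Subcutaneous Mrc1 gained a call in DESeq2, with RLE, with the block and without control replicate 2 (2.19, adjusted p = 0.0201). RLE moved single levels by -4.01% to 6.49%. With 2 or 3 tumors a group, a member that misses the threshold is not shown to be equal between groups.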
